A study of Sus scrofa with 20 samples.

Results

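The solute carriers are the genes whose symbols begin with SLC and a digit, the large superfamily of membrane proteins that move sugars, amino acids, peptides, ions, metals, vitamins and nucleotides across membranes. On the Affymetrix porcine array used here, 118 genes had such a symbol as the only symbol of a probe set, after leaving out SLC9A3R1 and SLC9A3R2, which encode scaffold proteins. The genes described were selected on measured values: 78 of the 118 had a log2 value of at least 4 in at least 3 of 20 arrays, and each gene was read from its probe set with the highest mean over those arrays. SLC2A4RG, which the symbol rule takes in, encodes a regulator of a glucose carrier gene and is no carrier itself. Of the 78, 68 were at or above that level in all 20 arrays. The other 40 carriers lay under the level.

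The samples were ileal mucosa of crossbred Landrace, Large White and Duroc piglets, 1 piglet per array, compared across age and weaning. Piglets weaned at 21 days onto a commercial weaner diet were killed at 28 days (21W28D, n = 3) or 35 days (21W35D, n = 3). Suckling piglets, which stayed with the sow and were kept from its feed, were killed at 14 days (S14D, n = 3), 21 days (S21D, n = 4), 28 days (S28D, n = 4) or 35 days (S35D, n = 3). The piglets came from litters of several sows, the sow of each array is not given, and p-values measure the spread between these arrays.

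Solute carriers differ from pumps in that they use no ATP directly. They let a substrate run down its own gradient, exchange it for another, or draw it in with sodium or protons, whose gradients are kept up by the sodium pump and by exchangers. In the absorbing enterocyte, one set of carriers on the brush border takes up nutrients from the gut lumen and another on the basolateral side passes them to the blood, while family 25 serves mitochondria and family 35 loads the Golgi with nucleotide sugars. The ileum is known for the recovery of bile acids, for its Peyer's patches, and in newborn pigs for enterocytes that take up whole milk proteins into large lysosomes. In a scraped mucosa all cell types are measured together, so fewer cells of a type and less RNA per cell cannot be told apart.

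The values are log2 gcRMA values, on which 1 unit is a 2-fold difference within a probe set. The lowest value in the table was 2.08, and 41.6% of all values lay within 1 unit of it. Signals of different probe sets depend on their probes and were not set against each other. FABP6, the ileal bile acid binding protein, had a mean of 15.5. Several arrays stood apart. Over all probe sets, 21W35D replicate 2 had the weakest correlation with the rest of its own group, 0.970. Judged by correlation with group means, each of the 3 arrays labelled S35D resembled 21W35D more than S28D, whereas 2 of the 3 labelled 21W28D resembled S28D more than 21W35D. Results that rest on either of these 2 groups are therefore given by label and were also computed with the 2 labels exchanged. The array S14D replicate 1 had a correlation of 0.988 with the S21D mean and 0.986 with the other S14D arrays.

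By the family numbers in their symbols the 78 genes fell into 12 substrate classes. Mitochondrial carriers were the largest class with 18 genes, followed by amino acid and peptide carriers with 14, nucleotide sugar carriers with 10, sugar carriers with 9 and metal ion carriers with 9. Inorganic ion carriers numbered 5 and vitamin and choline carriers 5. A family number is a coarse guide: SLC5A6 of a sugar family carries vitamins, SLC6A8 of the amino acid carriers takes up creatine, SLC6A4 takes up serotonin, and members of subfamily 35F have no settled substrate. All 10 measured genes of family 35 and 18 of 21 mitochondrial carriers passed the level, against 5 of 12 inorganic ion carriers and 9 of 16 sugar carriers. Of all 6765 genes with 1 symbol on the array 5228 passed it, and of the 118 carriers 78 did. Among the genes far above the level were SLC25A3, SLC25A5 and SLC25A6, which exchange adenine nucleotides or bring phosphate into mitochondria, SLC5A1, the sodium-glucose cotransporter SGLT1, and SLC35F5. Each of the 5 had a mean of at least 12.78 over the 20 arrays.

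Near the level itself, the genes just inside were SLC22A3, an organic cation carrier, where the third highest value was 4.47, SLC31A2 with 4.52 and SLC46A2 with 4.57. Just outside were SLC27A6, where the third highest value was 3.96, SLC1A4 with 3.89, SLC12A4 with 3.88 and SLC3A2 with 3.73. Several carriers well known from absorption were under it. SLC9A3, the brush border sodium-proton exchanger, and SLC34A2, a phosphate carrier, were at 2.08 in every array, and SLC29A1, a nucleoside carrier, did not exceed 2.49. The T cell marker CD4 and the smooth muscle marker MYLK did not exceed 2.12 and 2.08 either. A probe set at the lowest value therefore cannot be read as absence of its gene's RNA. Of 26 carriers listed from textbook roles in the gut, 11 were among the 78, and those without a probe set of their own symbol, the bile acid carrier SLC10A2 among them, were not analysed here.

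**Figure D1:**
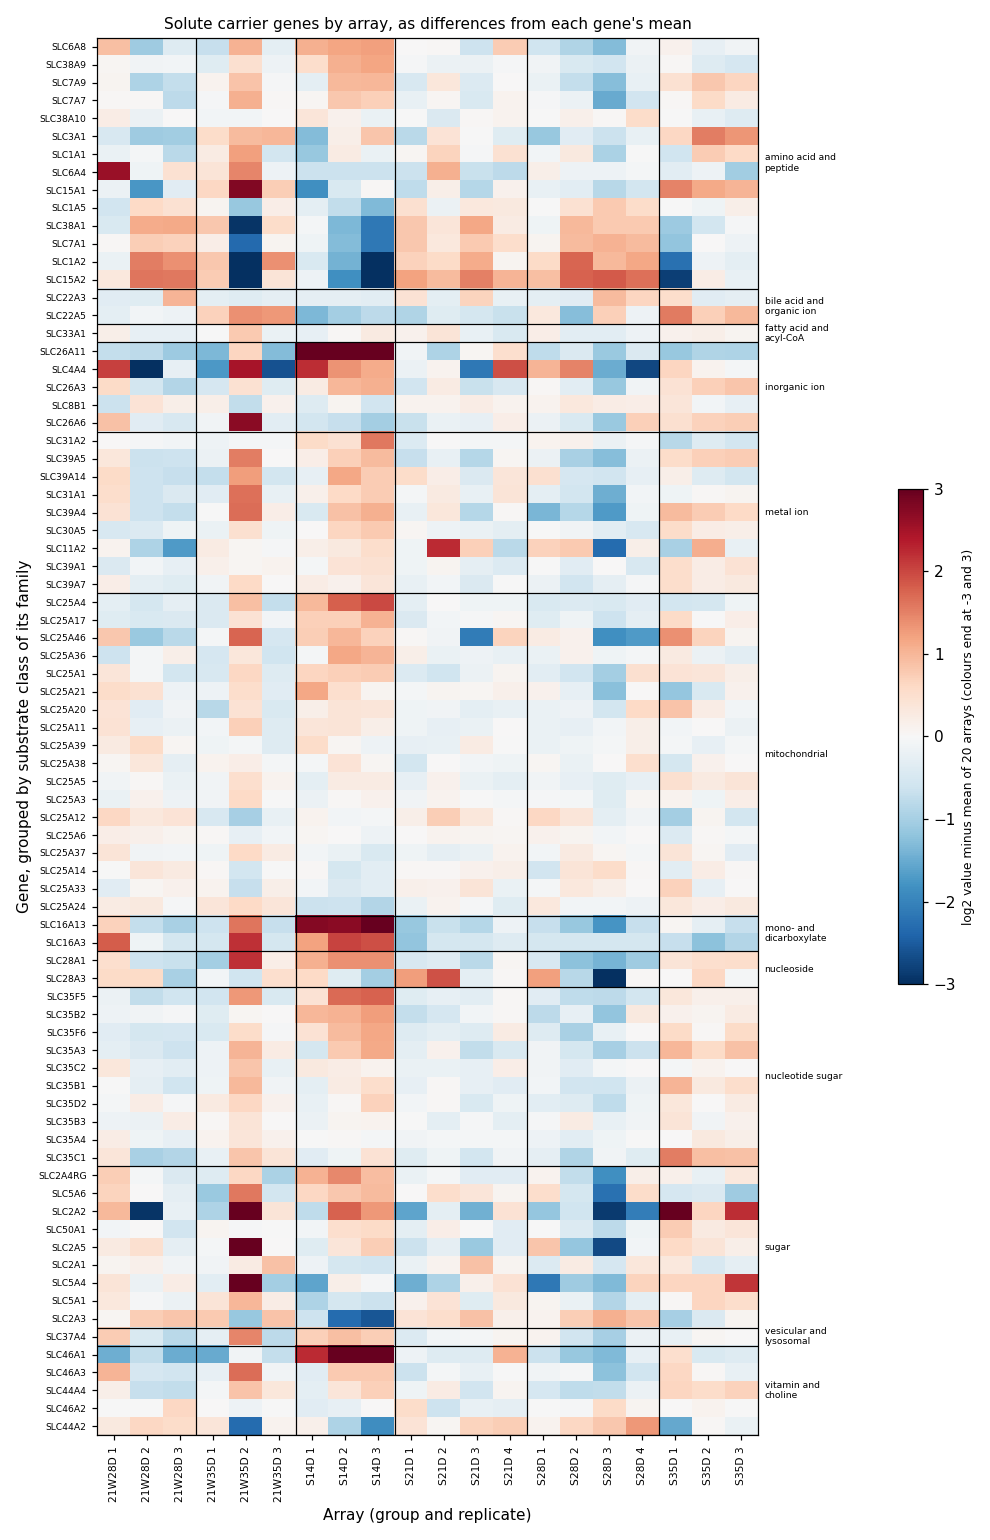
Each row is 1 of the 78 solute carrier genes, grouped by the substrate class of its family, and each column is 1 of the 20 arrays, with the weaned groups left of the suckling groups. Colour gives the log2 value minus the gene's mean over the 20 arrays, and the dark red cells of SLC26A11, SLC16A13 and SLC46A1 in the 3 S14D columns and the many red cells of 21W35D replicate 2, the highest array for 29 of the 78 genes, stand out.

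The first question was how the carriers changed over the suckling period, starting with the step between 14 and 21 days. The sulfate carrier SLC26A11, the monocarboxylate family member SLC16A13 and the folate carrier SLC46A1 had the largest falls, of 3.70, 3.62 and 3.15 log2 units. In S21D against S14D, 13 of the 78 genes fell and 4 rose at an adjusted p under 0.05 in limma over 23999 probe sets, and 61 did not pass the test. The 13 were 16.7% of the genes, against a background of 7.63% of all probe sets and 11.9% of the 5228 named genes that reach the same level. The 4 were 5.13%, against 7.27% of all probe sets and 13.2% of those named genes. The median difference was -0.36 over the 78 genes and 0.04 over the named genes. Of the 17 called, 14 were at or above the level of 4 in all 20 arrays, and SLC46A1, SLC31A2 and SLC16A3 were so in 15, 12 and 5 arrays. Of the 40 carriers under the level 1 passed, SLC3A2, the heavy chain of several amino acid exchangers, which was 2.64 in S21D and 3.69 in S14D.

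The count rested on the S14D arrays. It was 8 without S14D replicate 3, 9 without S14D replicate 2, 22 without S14D replicate 1 and 11 without S21D replicate 1. It was 28 without 21W35D replicate 2, which enters the fit only through the shared variance, and 11 when the arrays labelled S35D and 21W28D were left out of the fit. Of the 16 called genes that were followed singly through the alternatives, 7 lost the call when only S21D and S14D were fitted, and the same 7 lost it by the methods' t-test after Benjamini-Hochberg adjustment: SLC25A24, SLC2A3, SLC31A2, SLC35F5, SLC35F6, SLC5A1 and SLC7A1. None of the 16 changed sign.

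SLC26A11, a sulfate and anion carrier of lysosomes and other membranes, had log2 values of 7.22, 6.40, 7.39 and 7.83 in S21D, against 10.31, 11.11 and 11.29 in S14D. The groups lay more than 2 units apart. Its difference was -3.70 (SE 0.43, 95% interval -4.62 to -2.77), a 12.9-fold lower level, with an adjusted p of 1.28e-04 in limma. Over the 17 later arrays it ranged between 5.98 and 7.96 with a median of 6.53, and the highest of these was 21W35D replicate 2. The level at 14 days thus lay above every later array.

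SLC16A13, a monocarboxylate carrier family member, had log2 values of 6.74, 7.21, 7.02 and 7.73 in S21D, against 10.64, 10.58 and 11.17 in S14D. The difference was -3.62 (SE 0.52), or 12.3-fold, with an adjusted p of 6.73e-04 in limma. Every later array was below the S14D arrays, but not evenly so: 21W35D replicate 2 had 9.48 and 21W28D replicate 1 had 8.56, while the other 15 arrays were below 8.

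SLC46A1, the proton-coupled folate carrier of the brush border, had log2 values of 4.79, 4.55, 4.55 and 5.98 in S21D, against 7.17, 7.99 and 9.18 in S14D. It fell by 3.15 log2 units (SE 0.50), 8.86-fold, with an adjusted p of 0.00124 in limma. In 21W28D it was 3.47, 4.19 and 3.45, the lowest group mean of the 6, at 3.70 ± 0.42 (SD, n = 3). SLC46A3, a relative of lysosomes, was 7.16 in S21D and 7.82 in S14D on its brightest probe set, and 3.05 log2 units lower in S21D than in S14D on a dimmer one that was not tested as a member.

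Mitochondrial and peroxisomal carriers followed with smaller differences. SLC25A4, the adenine nucleotide exchanger typical of muscle and other cells that do not divide, was 10.50, 10.79, 10.66 and 10.66 in S21D, against 11.75, 12.58 and 12.77 in S14D (difference -1.71, SE 0.31, adjusted p 0.00298 in limma). Its near relatives SLC25A5 and SLC25A6 did not pass the test in this comparison, with differences of -0.22 ± 0.15 and 0.10 ± 0.09 (SE). Muscle markers moved alongside: 1 of 7 smooth muscle markers was lower in S21D (ACTA2, -0.99), and the mean of the list was 6.65 to 6.94 in S21D and 7.62 to 7.84 in S14D. The part of muscle in the SLC25A4 result was not tested. SLC25A17, which carries cofactors into peroxisomes, was 0.95 log2 units lower in S21D than in S14D (SE 0.19, adjusted p 0.00592 in limma).

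SLC25A24, a calcium-sensitive carrier that sets the adenine nucleotide content of mitochondria, ran the other way. It was 11.98, 12.29, 12.16 and 11.83 in S21D and 11.56, 11.57 and 11.32 in S14D, a rise of 0.58 (SE 0.13, adjusted p 0.00964 in limma, 0.0655 without S14D replicate 3). All 17 later arrays were at 11.83 or higher, and none of the S14D arrays exceeded 11.57.

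Among carriers of the Golgi and the lysosome, SLC35B2, which brings the sulfate donor PAPS into the Golgi, fell by 1.41 log2 units (SE 0.27, adjusted p 0.00435 in limma). It was 6.91, 7.12, 7.54 and 7.66 in S21D, against 8.61, 8.68 and 8.87 in S14D. SLC38A9, an amino acid sensor of the lysosome, was 10.52 to 10.66 in S21D, against 11.22, 11.77 and 11.90 in S14D, and fell by 1.04 (SE 0.20, adjusted p 0.00440 in limma). A dimmer probe set of SLC38A9 gave a difference of -1.07. SLC35F5 and SLC35F6, whose substrates are not settled, were 1.53 and 1.05 log2 units lower in S21D (adjusted p 0.0198 and 0.0209 in limma), and the other probe sets of both were lower too. Both calls were lost without S14D replicate 2, S14D replicate 3 or S21D replicate 3, and that of SLC35F6 also without S21D replicate 1 (adjusted p up to 0.114 for SLC35F5 and 0.117 for SLC35F6).

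Metal carriers lower in S21D were SLC31A2, a copper carrier of endosomes, by 1.00 (SE 0.21, adjusted p 0.00731), and SLC30A5, a zinc carrier of the secretory pathway, by 0.62 (SE 0.20, adjusted p 0.0489, both in limma). The S21D and S14D values of SLC30A5 overlapped. SLC31A2 was close to the rule's level, with 3.65, 4.08, 4.01 and 4.01 in S21D, against 4.63, 4.52 and 5.65 in S14D. The remaining falls were in SLC28A1, a carrier of pyrimidine nucleosides, by 1.67 (adjusted p 0.0494), which kept its call in 3 of 20 fits that each left out 1 array, and in SLC16A3, the lactate exporter MCT4, by 2.37 (adjusted p 0.0196, both in limma). SLC16A3 was 2.91, 3.57, 3.57 and 3.70 in S21D, and 4 of the 20 arrays shared the value 3.57 to 4 digits, so its lower level is at the limit of what the probe set resolves. It was 5.30, 6.11 and 6.03 in S14D, and it passed the rule through S14D and 2 arrays of the weaned groups. Its call was lost without S14D replicate 2, S14D replicate 3 or S21D replicate 1.

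Of the 9 genes of the sugar carrier families, SLC2A4RG and SLC5A6 included, 2 rose and 7 did not pass, beside the 13.2% of named genes that rose. SLC5A1, through which the brush border takes up glucose and galactose, was 14.26, 14.54, 13.77 and 14.44 in S21D, and 13.22, 13.62 and 13.49 in S14D. It rose by 0.81 (SE 0.26, adjusted p 0.0468 in limma), and the call held in 7 of 20 fits that each left out 1 array. SLC2A3, the high-affinity glucose carrier GLUT3 of neurons and leukocytes, was 8.99, 9.10, 9.45 and 8.74 in S21D, against 7.97, 6.28 and 6.01 in S14D. It rose by 2.32 (SE 0.51, adjusted p 0.0103 in limma, at most 0.0714 without S14D replicate 2 or S14D replicate 3).

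Among amino acid and peptide carriers, 1 of 14 rose, SLC7A1, the cationic amino acid carrier CAT1 of dividing cells, and 1 fell, SLC38A9. Of the named genes at the same level, 13.2% rose and 11.9% fell. SLC7A1 was 11.67, 11.20, 11.67 and 11.39 in S21D, and 10.73, 9.57 and 8.72 in S14D (difference 1.81, SE 0.57, adjusted p 0.0468 in limma). It kept that call in 6 of 20 fits that each left out 1 array.

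**Figure D2:**
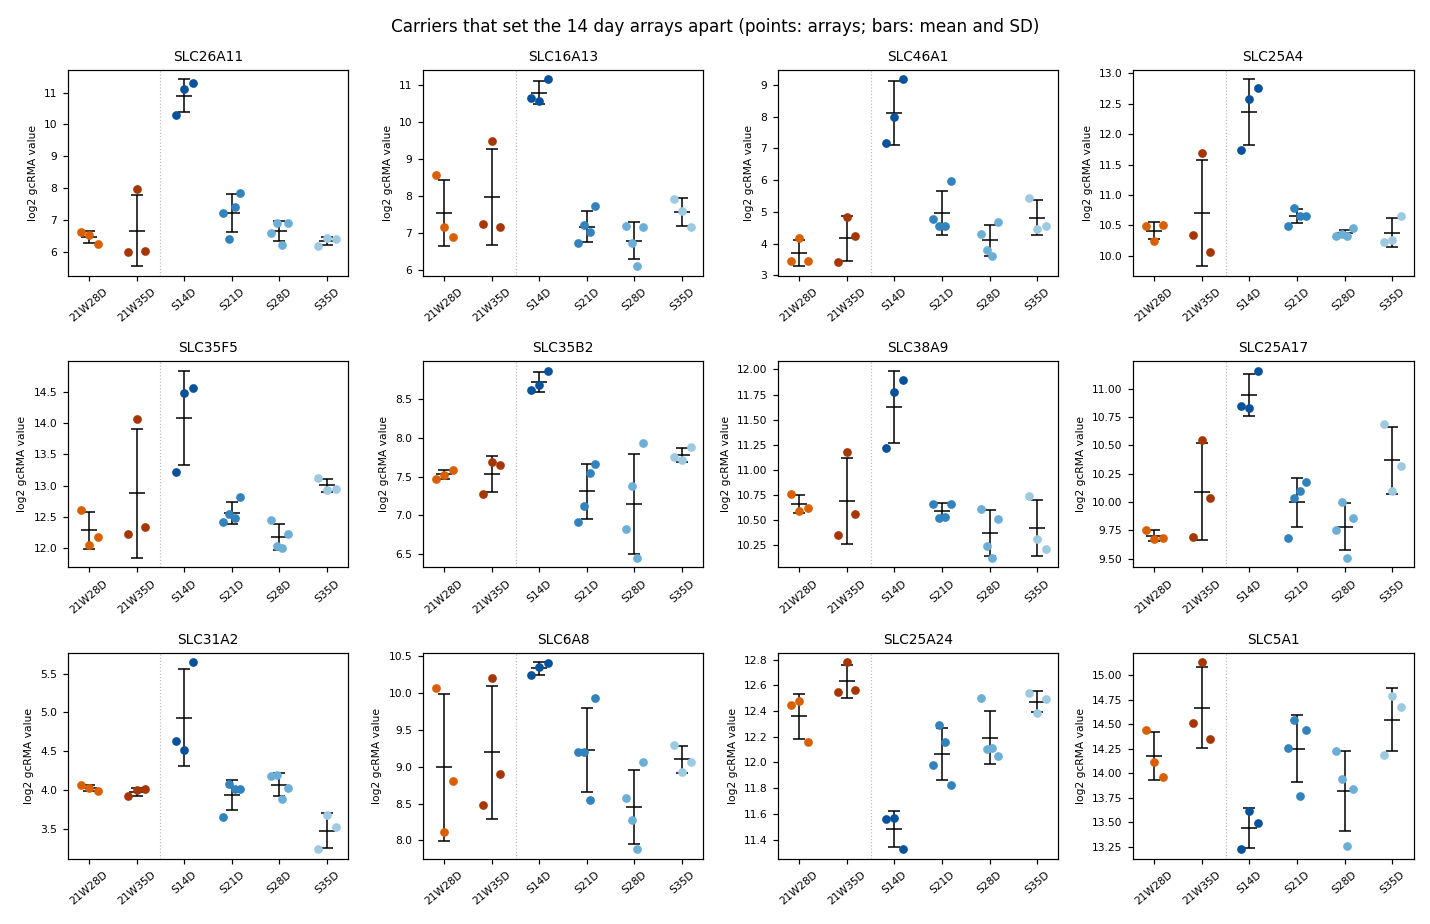
Log2 gcRMA values of 12 solute carriers, 1 point per array, with the mean and SD of each group as bars, weaned groups left of the dotted line and suckling groups right of it. In 9 of the panels every S14D point lies above all points of SLC26A11, SLC16A13, SLC46A1, SLC25A4, SLC35B2, SLC38A9, SLC25A17, SLC31A2 or SLC6A8 in the later groups, in SLC25A24 every S14D point lies below them, and in SLC35F5 and SLC5A1 the groups overlap.

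The same question asked of all later arrays at once does not depend on the labels in doubt. In the mean of the 5 later groups against S14D, 16 genes fell and 5 rose, and 57 did not pass the test. The falls were 20.5% of the 78 genes, against 9.87% of all probe sets and 14.6% of the named genes at the same level. The rises were 6.41%, against 8.66% and 15.8%. S14D is shared with the first comparison, and 16 of the 17 genes called there were called here too. The count was 14 without S14D replicate 2, 11 without S14D replicate 3 and 31 without 21W35D replicate 2. The 3 largest differences were -4.25 for SLC26A11 (SE 0.35, adjusted p 2.32e-06 in limma), -3.76 for SLC46A1 and -3.38 for SLC16A13.

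For 11 genes, or 14.1%, all 17 later arrays lay below all 3 S14D arrays, against 6.25% of the named genes at that level. For 1 gene, SLC25A24, or 1.28%, they lay above, against 3.27%. Between S21D and S14D alone, the groups did not overlap for 22 genes lower in S21D (28.2%, background 22.5%) and 9 higher (11.5%, background 23.7%).

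The later groups brought out 5 genes that the step between 14 and 21 days did not. SLC22A5, the carnitine carrier OCTN2, had a lowest value of 6.30, a median of 7.49 and a highest value of 9.14 over the 17 later arrays, against 6.23, 6.56 and 6.80 in S14D. It rose by 1.31 (SE 0.30, adjusted p 0.00701 in limma). SLC1A5, the neutral amino acid exchanger ASCT2, rose by 0.90 (adjusted p 0.0427 in limma) but kept the call in 5 of 20 fits that each left out 1 array.

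SLC6A8, the creatine carrier, ranged between 7.87 and 10.21 with a median of 8.93 over the later arrays, against 10.25, 10.36 and 10.41 in S14D, and fell by 1.35 (SE 0.39, adjusted p 0.0252 in limma). Its highest later value, in 21W35D replicate 2, was just below the S14D arrays. SLC2A4RG fell by 1.31 and SLC25A36, a pyrimidine nucleotide carrier of mitochondria, by 0.84 (adjusted p 0.0234 and 0.0249 in limma).

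**Figure D3:**
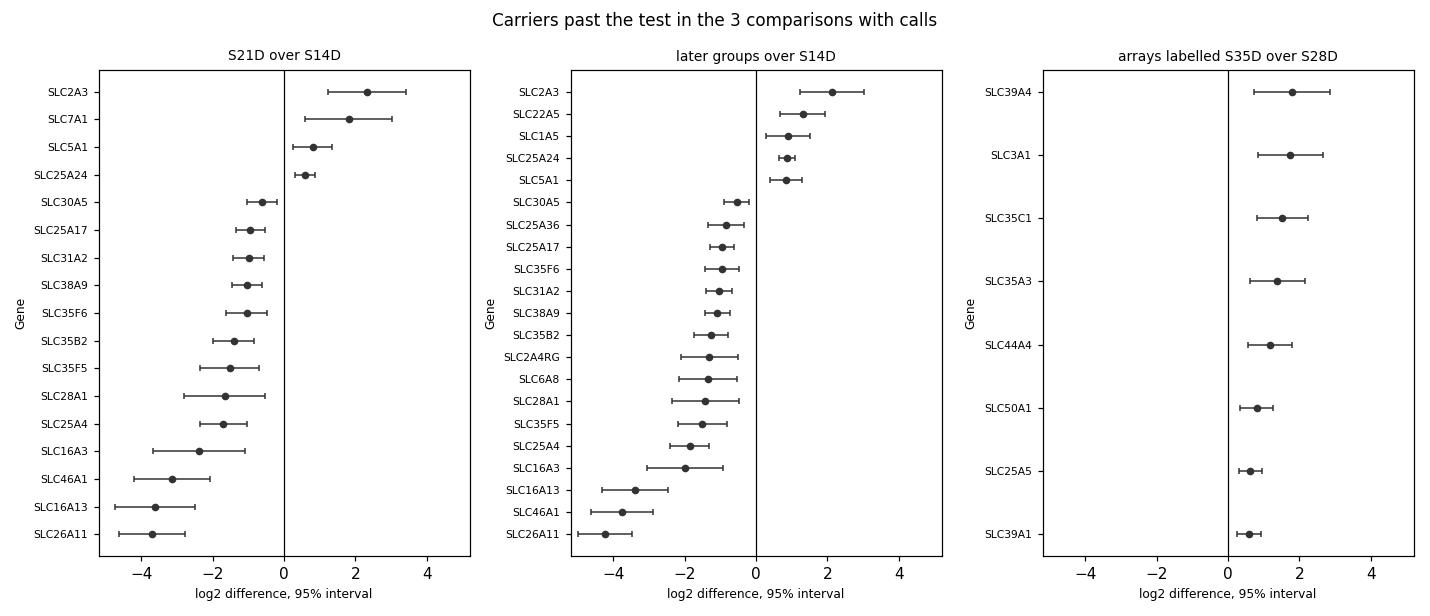
Points give the log2 difference of each solute carrier past the test, with its 95% interval from limma, in S21D over S14D, in the mean of the later groups over S14D, and in the arrays labelled S35D over S28D. Differences below 0 mean a lower level in the group named first, and the 3 furthest on that side are SLC26A11, SLC16A13 and SLC46A1 in both comparisons with S14D.

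Marker lists moved with the age groups and are given beside these results. The mean of 3 B cell markers (CD79B, BLNK and SPIB) was 12.23 to 12.77 in S21D and 7.91 to 11.80 in S14D, and 2 of the 3 were higher in S21D. The mean of 8 T cell markers was 6.27 to 7.08 in S21D and 4.82 to 5.83 in S14D, with 5 of 8 higher in S21D. The mean of 4 plasma cell markers was 9.63 to 9.76 in S21D and 9.17 to 9.43 in S14D, with 1 of 4 higher, JCHAIN by 2.00 (adjusted p 0.00200 in limma). The mean of 14 epithelial markers was 11.21 to 11.77 in S21D and 11.65 to 12.10 in S14D, with 1 of 14 higher, FABP6 by 1.98, and the mean of 3 erythrocyte markers was 5.07 to 5.69 in S21D and 8.86, 6.23 and 4.83 in S14D. The part of these cells in the carrier results was not tested.

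A set of carriers varied widely between the arrays of 1 group. SLC15A2, the peptide carrier PEPT2, had the widest range of the 78 genes, 7.27 log2 units. It was 11.55, 11.30, 11.85 and 11.35 in S21D, and 10.19, 8.50 and 5.08 in S14D. The difference was 3.59 with an SE of 1.35, and it did not pass the test (adjusted p 0.0876 in limma), although the groups did not overlap. Both dimmer probe sets of SLC15A2 gave like differences, 3.19 and 3.39. Its lowest value of all was 4.92, in 21W35D replicate 2, whose companions had 11.11 and 10.73, and in the arrays labelled S35D it was 7.51, 10.57 and 10.13.

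The B cell markers had their lowest means in the same arrays: 8.09 in 21W35D replicate 2, 7.91 in S14D replicate 3 and 9.40 in S35D replicate 1. SLC38A1 and SLC1A2, which take up glutamine and glutamate, and SLC44A2, a choline-like carrier, were picked for their likeness to SLC15A2 after their values were seen. SLC38A1 was lowest in 21W35D replicate 2 at 5.44 and next lowest in S14D replicate 3 at 6.23. SLC1A2 was 2.08, the lowest value of the table, in 21W35D replicate 2 and 2.23 in S14D replicate 3. SLC44A2 was 6.16 and 6.61 in those 2 arrays, and SLC7A1 8.55 and 8.72, its 2 lowest values. What part B cells have in these values was not tested.

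**Figure D4:**
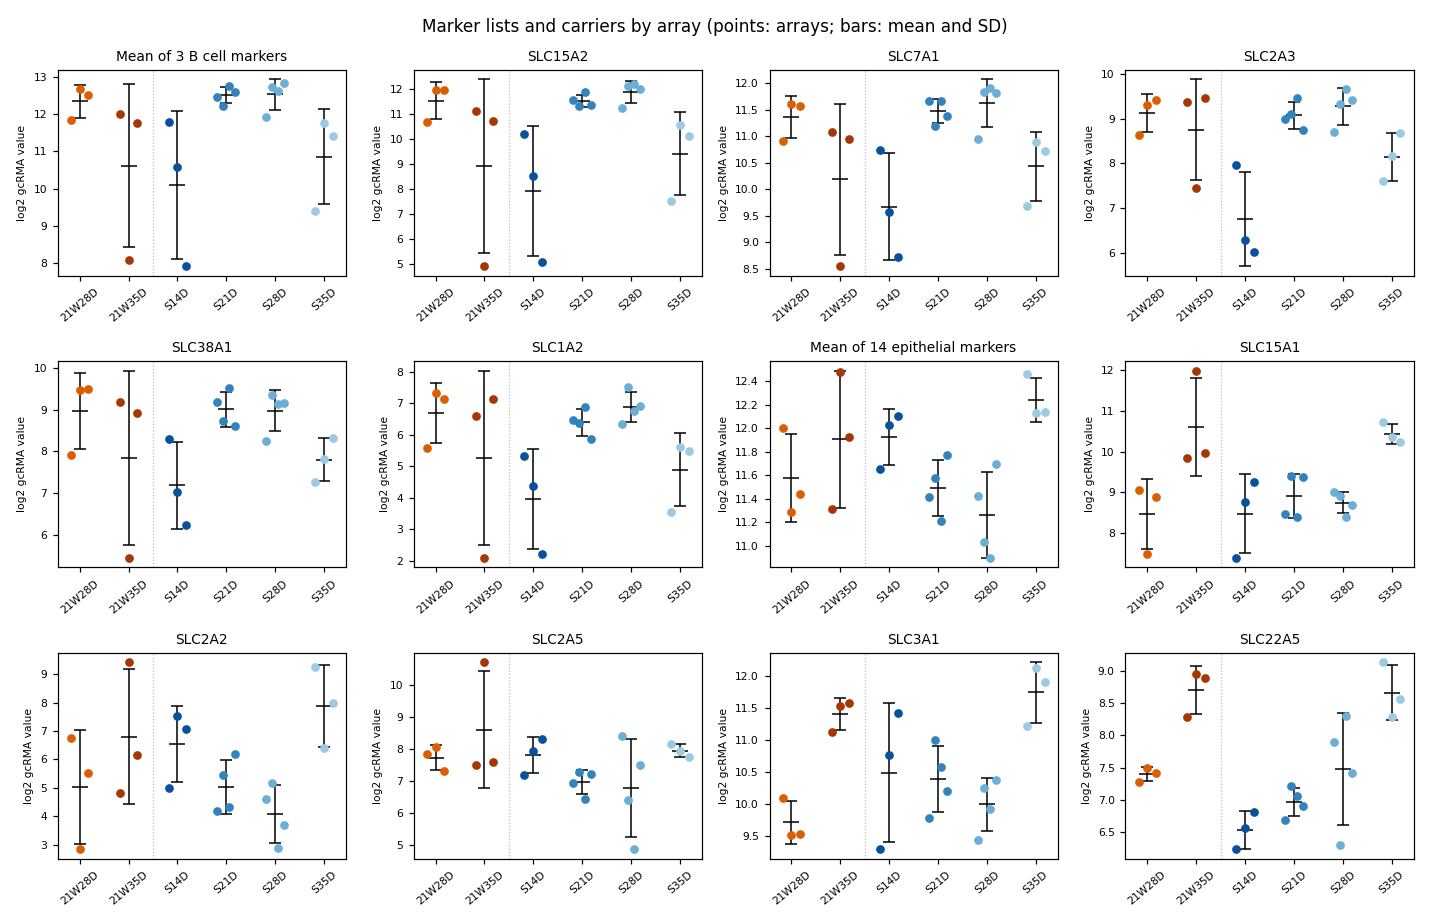
Log2 gcRMA values by array, 1 point per array with the mean and SD of each group as bars, for the mean of 3 B cell markers and 5 solute carriers and for the mean of 14 epithelial markers and 5 solute carriers. The array 21W35D replicate 2 is at or near the bottom in the B cell panel (8.09) and in SLC15A2, SLC7A1, SLC38A1 and SLC1A2, and at the top in the epithelial panel (12.48) and in SLC15A1 (11.998), SLC2A2 (9.43) and SLC2A5 (10.71).

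Other carriers were high where SLC15A2 was low, but not all those of the absorbing surface. The array 21W35D replicate 2 held the highest value of 29 of the 78 genes and S28D replicate 3 the lowest value of 28. Epithelial markers averaged 12.48, the highest of all arrays, in the first and 10.90, the lowest, in the second. SLC5A4, known as SGLT3, was 12.50 in 21W35D replicate 2, against 7.63 and 6.92 in the other 21W35D arrays. SLC2A5, the fructose carrier GLUT5, was 10.71 there, against 7.50 and 7.58, and had its lowest value, 4.87, in S28D replicate 3. SLC2A2, the glucose carrier GLUT2, was 9.43 in the first and 2.88 in the second. These 3 were chosen here after their values were seen, and other brush border genes were highest in other arrays. SLC3A1 was so in S35D replicate 2 (12.12), and SLC7A9 and SLC26A3 in S14D replicate 3 (12.89 and 12.13). SLC15A2 was low in S14D replicate 3 as well, and that array held the highest value of 17 of the 78 genes.

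For these genes the step between 14 and 21 days was within the spread of the arrays. The difference between S21D and S14D was -1.50 (95% interval -3.96 to 0.97) for SLC2A2, -0.84 (-2.51 to 0.83) for SLC2A5 and 0.03 (-2.27 to 2.33) for SLC5A4. It was 0.44 (-0.74 to 1.62) for SLC15A1, the brush border peptide carrier PEPT1, and -0.10 (-1.01 to 0.82) for SLC3A1, a subunit of the cystine and dibasic amino acid carrier. Its partner SLC7A9 gave -0.69 (-1.48 to 0.10), and SLC1A1, the glutamate carrier of the brush border, 0.65 (-0.33 to 1.63). None of these 7 passed the test in limma.

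Ion and metal carriers of enterocytes did not pass in this comparison either. SLC26A3, the chloride-bicarbonate exchanger, had a difference of -1.14 (-1.96 to -0.33), with an adjusted p of 0.0567 in limma, and was 10.48, 11.32, 10.40 and 10.57 in S21D and 11.31, 12.06 and 12.13 in S14D. SLC4A4, a sodium bicarbonate carrier, gave -1.63 (-4.69 to 1.44), SLC39A4, the zinc uptake carrier, -0.67 (-1.73 to 0.40), and SLC11A2, the iron carrier DMT1, 0.17 (-1.53 to 1.86). These intervals allow changes of more than 2-fold in at least 1 direction for each of them.

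Between 21 and 28 days of suckling no carrier passed. In S28D against S21D the limma test called 0 of 78, with 0 at an unadjusted p under 0.05 and 0 by the methods' t-test, against a background of 0.00417% of all probe sets. The widest intervals did not exclude large differences, such as -0.96 (95% interval -3.24 to 1.32) for SLC2A2. For SLC5A1 the difference was -0.43 (-0.94 to 0.07).

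The last suckling step rests on arrays whose labels are in doubt. The paper, at its own cut-off, reported far more genes changed between S28D and 21W28D than between S28D and S35D. By the labels used here the order was the reverse. Over all probe sets, limma called 1570 in the arrays labelled S35D against S28D and 0 in 21W28D against S28D. The rises below may therefore belong to weaned piglets, and whether the labels were exchanged was not tested. In the arrays labelled S35D against S28D, 8 of 78 carriers rose and 0 fell, 10.3% against a background of 3.53% of all probe sets and 7.79% of the named genes at the same level for rises, and 3.01% and 3.67% for falls. At an unadjusted p under 0.05 there were 31. Once the names S35D and 21W28D were swapped between their arrays, S35D against S28D had 0 calls and the same 8 genes were higher in 21W28D than in S28D. The count was also 0 without S28D replicate 2, without S35D replicate 1 or without S35D replicate 3, 3 without S28D replicate 3 and 17 without 21W35D replicate 2. It was 4 without S21D replicate 1 and 5 without S14D replicate 2, S21D replicate 3, S21D replicate 4, S28D replicate 4 or 21W35D replicate 3. Groups did not overlap for 23 genes that were higher (29.5%, background 17.9%) and 8 that were lower (10.3%, background 20.3%) in the arrays labelled S35D.

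SLC39A4 was 9.64, 9.46 and 9.30 in the arrays labelled S35D, against 7.32, 7.83, 6.99 and 8.57 in S28D, a rise of 1.78 (SE 0.50, adjusted p 0.0471 in limma). SLC3A1 was 11.21, 12.12 and 11.90, against 9.43, 10.24, 9.92 and 10.37 in S28D, a rise of 1.75 (SE 0.43, adjusted p 0.0311 in limma). A dimmer probe set of SLC3A1 gave -0.28 and did not follow, and the call was lost when the probe sets of a gene were averaged. In 20 fits that each left out 1 array, SLC39A4 kept its call in 6 and SLC3A1 in 15. Both genes belong to the apical uptake machinery, of zinc and of cystine and dibasic amino acids.

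Of the 10 genes of family 35, the nucleotide sugar carriers, 2 rose, beside the 7.79% of named genes that did. SLC35C1, which carries GDP-fucose, was 7.12, 6.49 and 6.47 in the arrays labelled S35D, against 5.32, 4.69, 5.48 and 5.22 in S28D (difference 1.52, SE 0.33, adjusted p 0.0209 in limma). SLC35A3, a carrier of UDP-N-acetylglucosamine, was 11.07, 10.65 and 10.95, against 9.98, 9.55, 9.07 and 9.43 in S28D (difference 1.38, SE 0.36, adjusted p 0.0378 in limma). SLC44A4, a choline-like protein that carries thiamine pyrophosphate, rose by 1.17, and SLC50A1, a sugar carrier of the SWEET family, by 0.81 (adjusted p 0.0321 and 0.0413 in limma). In the 20 fits that each left out 1 array, SLC35C1 kept its call in 17, SLC44A4 in 16, SLC35A3 in 13 and SLC50A1 in 10. The last 2 of the 8, SLC25A5 and the zinc carrier SLC39A1, rose by 0.62 and 0.60.

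The epithelial markers averaged 12.13 to 12.46 in the arrays labelled S35D and 10.90 to 11.70 in S28D, and 4 of the 14 rose (CDH1, CDH17, KRT18 and TJP1). TJP1 differed by 0.38 and lay between 2.41 and 3.20 over all arrays, near the lowest value of the table. B cell markers averaged 9.40 to 11.76 in the arrays labelled S35D and 11.93 to 12.84 in S28D. The 7 smooth muscle markers averaged 7.24, 6.76 and 9.48 in the arrays labelled S35D and 6.44 to 7.44 in S28D, and none of the 7 passed. The part of any of these lists in the 8 results was not tested. Peptide and hexose carriers went both ways and did not pass. The difference was 1.70 (95% interval 0.52 to 2.88, adjusted p 0.0773) for SLC15A1 and -2.48 (-5.36 to 0.40, adjusted p 0.286, both in limma) for SLC15A2. It was 3.80 (1.33 to 6.26, adjusted p 0.0619) for SLC2A2 and -1.13 (-2.23 to -0.03, adjusted p 0.1999, both in limma) for SLC2A3. The groups did not overlap for any of these 4.

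Partner proteins of carriers were listed as 18 genes. In S21D against S14D, 1 rose and 4 fell, beside 7.27% and 7.63% of all probe sets. BSG, the chaperone of monocarboxylate carriers, fell by 0.84 (adjusted p 0.0126), and FABP6 rose by 1.98 (adjusted p 1.45e-04, both in limma). The rest of the falls were in genes with low means over the arrays, between 2.31 and 4.11. In the arrays labelled S35D against S28D, 4 rose and 0 fell, beside 3.53% and 3.01% of all probe sets. Among the 4 was AQP3, a channel for water and glycerol, which rose by 1.94 (adjusted p 0.0397 in limma).

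The second question was what weaning at 21 days did. With the labels as given, no carrier passed in any of the 5 weaning comparisons, nor in the test of whether the effect of weaning differed between 35 and 28 days. Once the names S35D and 21W28D were swapped, 8 of 78 were higher in 21W28D than in S28D (SLC39A4, SLC3A1, SLC35C1, SLC35A3, SLC44A4, SLC50A1, SLC25A5 and SLC39A1), and SLC22A5 and SLC35C1 passed in 21W28D against S21D, so the absence of calls at 28 days depends on the labels. The paper, at its own cut-off, reported a marked effect of weaning, with many genes changed in 21W28D against S21D and against S28D. By the labels as given, the limma test called 0 of 78 in each of these comparisons. The background was 0% of all probe sets in each, which conflicts with the paper's report. The lack of calls therefore cannot be read as absence of a weaning effect on the carriers. There were 2 genes at an unadjusted p under 0.05 when S21D was the comparison and 0 when S28D was. The methods' t-test at an unadjusted p under 0.05 and 2-fold gave 1 and 0. That gene was SLC46A1, at 3.47, 4.19 and 3.45 in 21W28D, against 4.79, 4.55, 4.55 and 5.98 in S21D (difference -1.26, 95% interval -2.32 to -0.19, adjusted p 1 in limma).

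In 21W35D the limma test called 0 of 78 against S21D, against S35D and against 21W28D, where the background was 0.296%, 0.0458% and 0.0792% of all probe sets. At an unadjusted p under 0.05 there were 9, 2 and 9. The methods' t-test at an unadjusted p under 0.05 and 2-fold gave 2, 0 and 3. The interaction of weaning and age called 0 genes, also 0 at an unadjusted p under 0.05, with a background of 0%.

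SLC22A5 came closest. It was 8.28, 8.96 and 8.89 in 21W35D, against 6.69, 7.21, 7.06 and 6.91 in S21D, so that the groups did not overlap. The difference was 1.74 (SE 0.36, 95% interval 0.97 to 2.51) with an adjusted p of 0.0674 in limma, and it passed when dim probe sets were left out (adjusted p 0.0228). In 20 fits that each left out 1 array the adjusted p lay between 0.00709 and 0.211. It passed in 2 of them, without S28D replicate 2 or S28D replicate 3, and was 0.199 without 21W35D replicate 2, where the difference was 1.62. Against the arrays labelled S35D, which had 9.14, 8.29 and 8.56, the difference was 0.04 (-0.78 to 0.87), and against 21W28D, which had 7.28, 7.49 and 7.42, it was 1.31 (0.48 to 2.13, adjusted p 0.283 in limma).

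Brush border carriers of peptides, amino acids and sugars did not pass after adjustment. SLC15A1 was 9.86, 11.998 and 9.98 in 21W35D, against 8.48, 9.40, 8.38 and 9.37 in S21D (difference 1.70, 95% interval 0.52 to 2.88, adjusted p 0.263 in limma), and the difference was 1.01 without 21W35D replicate 2. SLC3A1 was 11.12, 11.52 and 11.57, against 9.78, 10.99, 10.58 and 10.20 in S21D (difference 1.02, 0.10 to 1.93, adjusted p 0.397 in limma). SLC5A1 was 14.52, 15.14 and 14.35, against 14.26, 14.54, 13.77 and 14.44 in S21D (difference 0.42, -0.13 to 0.96).

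Set against suckling piglets of the same age by the labels as given, the intervals of the differences for SLC15A1, SLC5A1 and SLC2A5 included 0. In 21W35D against S35D they were 0.17 (95% interval -1.10 to 1.43) for SLC15A1, 0.12 (-0.46 to 0.70) for SLC5A1 and 0.65 (-1.13 to 2.44) for SLC2A5. In 21W28D against S28D they were -0.27 (-1.45 to 0.91) for SLC15A1, 0.36 (-0.19 to 0.91) for SLC5A1 and 0.94 (-0.73 to 2.61) for SLC2A5. After the same swap of names, the intervals of SLC15A1 and SLC5A1 at 28 days no longer included 0, at 1.70 (0.52 to 2.88) for SLC15A1 and 0.73 (0.18 to 1.28) for SLC5A1, nor did that of SLC15A1 at 35 days, at 2.14 (0.87 to 3.40). These intervals are not adjusted for the number of probe sets, and none of these differences passed the test. The adjusted p of SLC15A1 at 28 days was 0.0773 in limma.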

How the data were processed

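RNA of 20 ileal mucosa samples was hybridised to Affymetrix porcine arrays. The deposited values are log2 values that the authors made by gcRMA, with GCOS 1.2 named in the submitters' processing notes. The base of the logarithm was taken from the study's colour scale and the range of the values. Of 24123 probe sets, 124 controls were left out. Symbols came from the platform annotation, where 10069 probe sets had 1 symbol, 198 several and 13732 none. Of the 78 genes, 77 were found in the RefSeq gene table. gcRMA carries no detection flags here, and the number of arrays limits the precision.

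Groups followed the labels. One mean per group was fitted to all arrays with limma 3.58.1 (lmFit, eBayes) in R 4.3.3, and p-values were adjusted by Benjamini-Hochberg over 23999 probe sets. On simulated data for S21D over S14D, 49 of 100 probe sets changed 2-fold and 80 of 100 changed 4-fold were recovered, with 5 false calls. The real comparison called 3575 probe sets, far more than were changed in the simulation, so these recovery shares need not hold for it. Replicate numbers did not pair arrays: 20 of 46 same-numbered pairs correlated above 0.1 and 19 below -0.1.

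The genes and lists were chosen with earlier results of these data known. Named were, per comparison, up to 12 (S21D over S14D) or 6 called genes per direction, 26 textbook carriers, the 5 highest means and 5 widest ranges, the genes nearest the level and up to 3 partners. SLC38A1, SLC1A2, SLC44A2, SLC46A3, SLC6A8, SLC2A4RG, SLC25A36, SLC30A5, SLC39A1 and SLC25A5 were named after their values were seen.

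Alternatives were a filter on dim probe sets, which kept 13718, the mean of a gene's probe sets, a fit of only the groups compared, an intensity trend, median centring, a second quantile normalization, a replicate block, the methods' t-test, exchanged labels, each array left out and, chosen after seeing the data, a fit without the arrays labelled S35D and 21W28D.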

Additional observations from a re-analysis of the deposited data

Results flagged for a closer look

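In the groups of 4 arrays, S21D and S28D, 1 array stood far from the other 3 in 6 of 74 checks over 37 named carriers, where chance gives about 1 in 20. In S21D, replicate 1 was the lowest array for SLC16A3 (2.91) and SLC31A2 (3.65), and replicate 4 the highest for SLC35F6 (7.34) and SLC46A1 (5.98). In S28D, replicate 1 was the highest array for SLC25A24 (12.5) and the lowest for SLC7A1 (10.96). No carrier had weaned arrays wholly above the suckling arrays at 1 age and wholly below them at the other.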

How the results depend on the processing

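The signal floor and 3 or 4 arrays per group limit what can be seen, and for genes near the floor a change to a lower level could not be measured. Over the 10 comparisons, every count of carriers called stayed within 1.5 times its value under the alternatives other than leaving out arrays, except as follows. In the arrays labelled S35D over S28D the count of 8 became 17 with dim probe sets left out, 16 by the methods' t-test at an unadjusted p under 0.05 and 2-fold, 1 with the replicate block, and 0 with only the groups compared in the fit, by the methods' t-test after Benjamini-Hochberg adjustment, or with the labels of these arrays and 21W28D exchanged. The exchange gave 8 in 21W28D over S28D and 2 in 21W28D over S21D. Counts of 0 became 1 in 21W35D over S21D with dim probe sets left out, and 1, 2 and 3 by the methods' t-test at an unadjusted p in 21W28D over S21D, 21W35D over S21D and 21W35D over 21W28D. In S21D over S14D the 17 became 11 with the arrays labelled S35D and 21W28D left out of the fit, an alternative chosen after seeing the data.

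With 1 array left out at a time, the counts ran between 8 and 28 in S21D over S14D, between 0 and 17 in the arrays labelled S35D over S28D, between 11 and 31 in the later groups over S14D and between 0 and 1 in 21W35D over S21D, and stayed at 0 in the other 6 comparisons. Replicate numbers did not pair the arrays, and with the replicate block the counts were 14 in S21D over S14D, 13 of them among the 17, and 19 in the later groups over S14D, 18 of them among the 21. A fit of only the groups compared was not run for the later groups, nor the methods' t-test for the interaction.

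Among the named carriers, signs changed only in genes that had not passed, apart from the exchange of labels, which gave -0.076 for SLC35C1 and -0.28 for SLC3A1 in S35D over S28D. In S21D over S14D, SLC11A2 had -0.057 with probe sets averaged, SLC25A3 0.012 after a second quantile normalization, and SLC5A4 -0.019 after median centring, -0.023 after quantile normalization and -0.39 with the replicate block. Leaving out single arrays moved SLC11A2 between -0.41 and 0.60, SLC15A1 between -0.10 and 0.83, SLC25A3 between -0.095 and 0.052, SLC3A1 between -0.70 and 0.37, and SLC5A4 between -0.52 and 0.37. The causes were not tested.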
